A study of Mus musculus with 34 samples.

Results

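S100 proteins are small calcium-binding proteins, and 8 of their genes were followed in 2 brain regions of juvenile mice, the neocortex and the hippocampus, 1 week after repeated kainate, nicotine or saline injections. The genes are S100a6, S100a10, S100a1, S100a13, S100b, S100a4, S100a8 and S100a9, taken by name from the 8251 genes that the array annotation names. Every probe set annotated with only 1 symbol, that of 1 of these genes, was used, which gave 14 probe sets. There were 3 for S100a1, 4 for S100a13, 2 for S100a10 and 1 for each of the others. The main value of a gene comes from its probe set with the highest mean on the log2 scale over all arrays.

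The study measured total RNA of the 2 brain regions on 34 Affymetrix oligonucleotide arrays. All mice were males injected intraperitoneally 3 times at intervals of 2 h at postnatal day 23, and tissue was taken at postnatal day 30. Kainate, which activates a class of ionotropic glutamate receptors and is used to provoke seizures, was given at 15 mg/kg per injection. Nicotine, which activates nicotinic acetylcholine receptors, was given at 10 mg/kg. Controls received saline, the solvent of both drugs. In each region there were 6 saline, 5 kainate and 6 nicotine arrays, each from a separate mouse, and samples came from the mice that survived. The labels give no strain, no genotype and no seizure score for these groups.

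An S100 protein carries a pair of EF-hand motifs, helix-loop-helix folds that hold calcium, and most members work as dimers. Calcium binding opens a surface through which the dimer grips target proteins such as the annexins, which bind membranes. Some members, among them S100B, S100A8 and S100A9, are also released from cells and act on receptors such as the receptor for advanced glycation end products. In the brain S100B is best known as a protein of astrocytes.

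Values are MAS5 signals on a linear scale, which were brought by the authors to nearly 1 level on every array, with a trimmed mean of 1000.5 to 1000.6. Correlations between arrays ran from 0.916 to 0.969 on the log2 scale, and 0 arrays were identical to another. The tissue labels fitted their markers in the saline arrays: 6 of 6 tested hippocampus markers were higher in the hippocampus and 4 of 5 neocortex markers were lower there. The median signal of the hippocampal arrays was highest after a drug (403 to 439 for kainate, 395 to 435 for nicotine, 381 to 391 for saline), so scaling bears on the hippocampal comparisons. Centring each array on its median shifted the median log2 fold change of all tested probe sets between kainate and saline hippocampus from 0.011 to -0.10.

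Of the 8 genes, 7 lie on chromosome 3 of the mouse genome (build GRCm38.p6), in the order S100a1, S100a13, S100a4, S100a6, S100a8, S100a9 and S100a10, and S100b lies on chromosome 10. 4 stretches before gene starts are shown, because S100a6 gave the largest drug effect among the 8 genes, S100a4 and S100a8 are its measured member neighbours on either side, and S100a1 and S100a13 start from opposite strands of 1 short stretch. They come from RefSeq on build GRCm38.p6, with a promoter entry for 7 of the 8 genes. S100a10 had no entry, so its promoter is neither shown nor searched for motifs. The S100a6, S100a4 and S100a8 sequences are the 250 bases before the start on the plus strand, at chr3:90612644-90612893, chr3:90603520-90603769 and chr3:90668821-90669070. The S100a1-S100a13 sequence is the plus strand of the 104 bases that separate the 2 starts, at chr3:90514331-90514434, with S100a1 read from its minus strand. Capitals mark the TATA box, TATAAA.
S100a6: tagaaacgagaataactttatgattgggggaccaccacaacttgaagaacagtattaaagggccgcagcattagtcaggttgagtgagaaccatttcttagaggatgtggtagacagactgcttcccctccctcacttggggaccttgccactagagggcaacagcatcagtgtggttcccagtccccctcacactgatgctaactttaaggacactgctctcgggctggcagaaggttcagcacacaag
S100a4: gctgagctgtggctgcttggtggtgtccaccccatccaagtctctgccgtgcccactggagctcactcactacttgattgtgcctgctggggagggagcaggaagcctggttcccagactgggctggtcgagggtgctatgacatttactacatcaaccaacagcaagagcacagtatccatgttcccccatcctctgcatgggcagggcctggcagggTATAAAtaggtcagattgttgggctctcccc
S100a8: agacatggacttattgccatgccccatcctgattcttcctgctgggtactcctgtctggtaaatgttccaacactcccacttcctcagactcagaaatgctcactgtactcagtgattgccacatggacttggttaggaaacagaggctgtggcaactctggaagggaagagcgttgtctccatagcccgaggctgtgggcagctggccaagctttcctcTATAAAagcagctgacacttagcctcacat
S100a1-S100a13: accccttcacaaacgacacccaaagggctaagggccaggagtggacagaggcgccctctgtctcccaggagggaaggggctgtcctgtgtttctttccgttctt

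Both strands of these 250-base windows were searched for letters of 5 motifs, and windows of the same length of all 32851 promoters in the table give the background. The TATA box, TATAAA, was in 12.4% of them. The GC box, GGGCGG, was in 32.7%. The E-box, CACGTG, was in 6.02%, the AP-1 motif, TGANTCA, in 6.75% and the STAT motif in 7.02%. The STAT motif was searched as TTCNNNGAA, and the motifs were counted independently, so that matches could overlap. TATAAA began 31 bases before the start of S100a4 and 30 bases before that of S100a8, and GGGCGG began 223 bases before that of S100a9. The windows of S100a6, S100a1, S100a13 and S100b held 0 matches. A match is a string of letters and was not tested as a site.

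The comparison of kainate with saline in the hippocampus asks how the glutamate agonist had altered expression 1 week later. S100a6 and S100a10 were higher, S100a6 nearly to 3 times its saline level and S100a10 to almost 2 times, and no member was called lower. These are 2 of the 6 members that could be tested, while 1.84% of all 8695 tested probe sets were called higher at an adjusted p under 0.05 and 2.79% in either direction (0.955% lower). The median log2 fold change of the 6 was 0.50, and that of all tested probe sets was 0.011. As the members were chosen with earlier results of these data known, such shares and medians, here and below, are descriptions and no test. S100a8 and S100a9 lay below the filter on low values, a mean log2 value at the 30th percentile, and were not tested. In bulk tissue, a change in RNA per cell and a change in the number of cells that hold it cannot be told apart.

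S100a6 encodes calcyclin, a dimeric S100 protein first described in proliferating cells. Its probe set gave signals of 894.9, 985.7, 921.6, 904.8, 973.5 and 1006.4 on the saline hippocampus arrays. On the kainate hippocampus arrays it gave 3100.4, 3483.4, 2422.3, 2169.7 and 2993.7. Every kainate array lay above every saline array, and the lowest kainate signal was more than 2 times the highest saline signal. The means were 2834 ± 531 (SD, n = 5) with kainate and 948 ± 46.6 (SD, n = 6) with saline, a log2 fold change of 1.55 ± 0.125 SE or 2.92-fold (limma, adjusted p = 4.42e-08).

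S100a10 encodes p11, the partner of annexin A2 in a membrane-bound complex, and differs from the other members in that its EF-hands do not bind calcium. Its brighter probe set gave 1984.1, 2046.5, 1856.2, 2075.1 and 2385.2 with kainate. The 6 saline hippocampus arrays ran from 793.4 over a median of 1150 to 1269.3, so the groups did not overlap. Among the main probe sets of the 6 tested members such a separation upward was seen for S100a6 and S100a10, and it was seen for 2.31% of all tested probe sets. The means were 2069 ± 196 (SD, n = 5) and 1103 ± 169 (SD, n = 6), a log2 fold change of 0.91 ± 0.143 SE or 1.88-fold (limma, adjusted p = 0.000418). The dimmer S100a10 probe set disagreed: its mean was 247 with kainate and 268 with saline, with a log2 fold change of -0.098 ± 0.340 SE (adjusted p = 0.939).

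**Figure D1:**
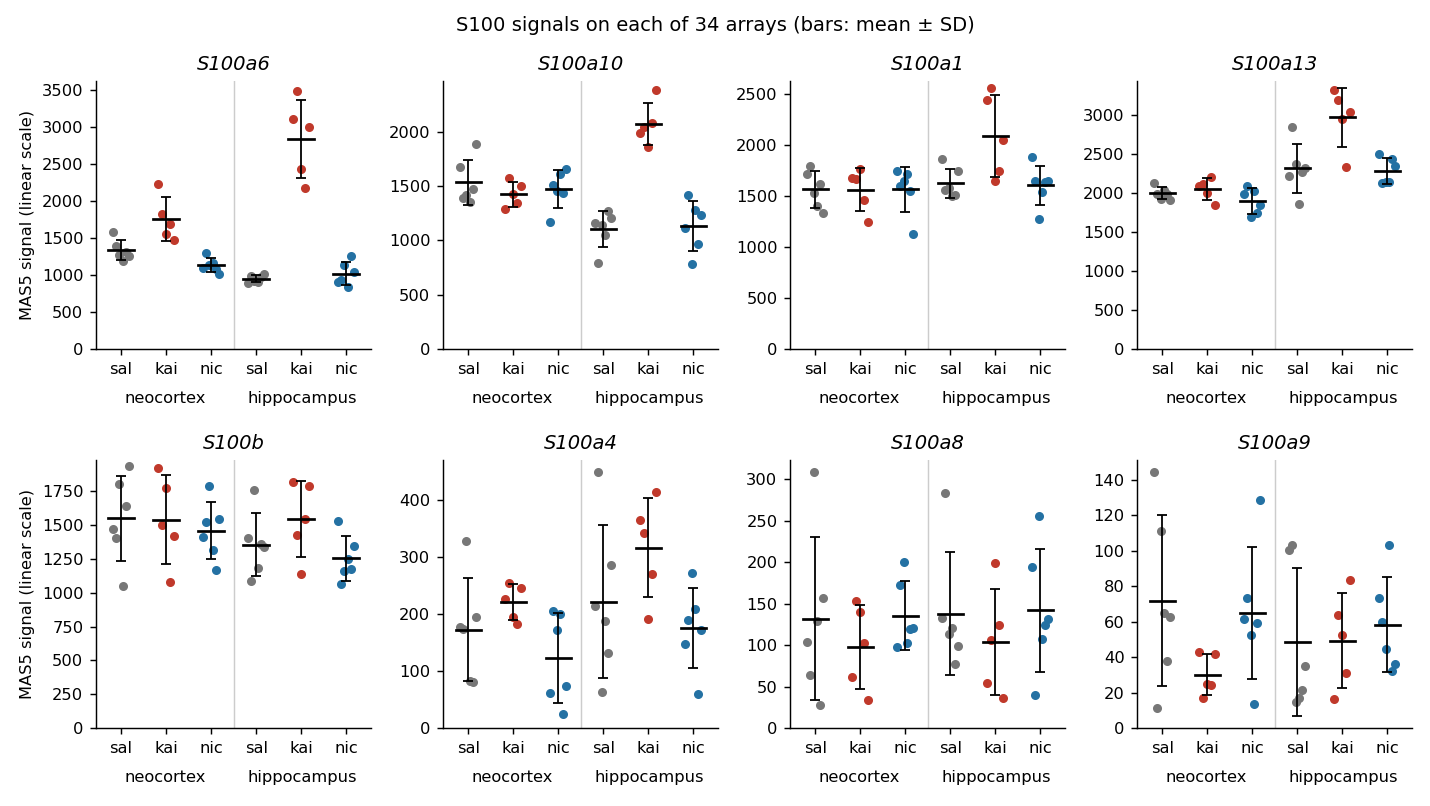
Signal of the main probe set of each S100 gene on each of the 34 arrays, on linear axes that start at 0, with saline (sal), kainate (kai) and nicotine (nic) arrays of each region side by side; points are arrays, and lines with bars are means ± SD of 5 or 6 arrays. S100a6 and S100a10 stand out in the kainate hippocampus, with means of 2834 and 2069 against 948 and 1103 with saline.

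S100a13, whose protein takes part in the release of fibroblast growth factor 1, had kainate hippocampus signals of 3325.9, 3199.4, 2957.5, 2335.8 and 3048.2. Its saline arrays ran from 1866.3 over a median of 2300 to 2846.5. All kainate arrays but that of 2335.8 lay above every saline array. The log2 fold change was 0.36 ± 0.106 SE, or 1.28-fold, and did not pass the test (limma, adjusted p = 0.0790). It passed without saline replicate 2 (0.42, adjusted p = 0.0304) and without kainate replicate 4 (0.44, adjusted p = 0.0212), and the adjusted p ran from 0.0212 to 0.191 over all arrays left out in turn. The other S100a13 probe sets that could be tested gave 0.14 ± 0.139 SE (adjusted p = 0.717) and 0.46 ± 0.136 SE (adjusted p = 0.0792). On the latter every kainate array (1248 to 1854.4) lay above every saline array (810.5 to 1176.4).

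S100a1, best known from heart and skeletal muscle and also present in neurons, gave 2436.7, 2554.8, 1643.2, 1747.4 and 2046.2 with kainate. Its saline hippocampus arrays ran from 1497.1 over 1570 to 1857.1. The kainate arrays split into 3 above every saline array and 2 inside the saline range. The log2 fold change of 0.34 ± 0.121 SE did not pass the test (adjusted p = 0.166). This value comes from a probe set whose suffix, f, marks probes shared within a sequence family. The S100a13 probe set at 0.46 carries the same suffix. The other S100a1 probe sets were too dim to test.

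S100b, the astrocyte protein, spread widely in both groups. Its kainate hippocampus signals were 1820.5, 1428.2, 1137.7, 1542.6 and 1793.5, and its saline signals ran from 1090.3 over 1351 to 1759.7. The ranges overlapped over most of their length, and the log2 fold change was 0.18 ± 0.137 SE (adjusted p = 0.599), with a 95% confidence interval from -0.10 to 0.47. S100a4, a protein linked to cell motility, was dim, at 364.6, 342.5, 190.7, 270.1 and 414.0 with kainate. Its saline hippocampus arrays ran from 63.0 over 200 to 448.5 and enclosed every kainate value, with a log2 fold change of 0.65 ± 0.388 SE (adjusted p = 0.482).

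S100a8 and S100a9 encode the subunits of calprotectin, a major protein of neutrophils. S100a8 gave 53.9, 105.7, 198.8, 124.8 and 36.4 in the kainate hippocampus against 77.2 to 283.2 with saline. S100a9 gave 16.3, 63.8, 52.4, 30.9 and 83.7 against 14.6 to 103.4. Both ranges overlapped, and tested without the filter the log2 fold changes were -0.43 ± 0.419 SE and 0.15 ± 0.411 SE (adjusted p = 0.780 and 0.938). Over all 6 groups the mean signal of S100a8 lay between 98.2 and 142, and that of S100a9 between 30.2 and 72.0.

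**Figure D2:**
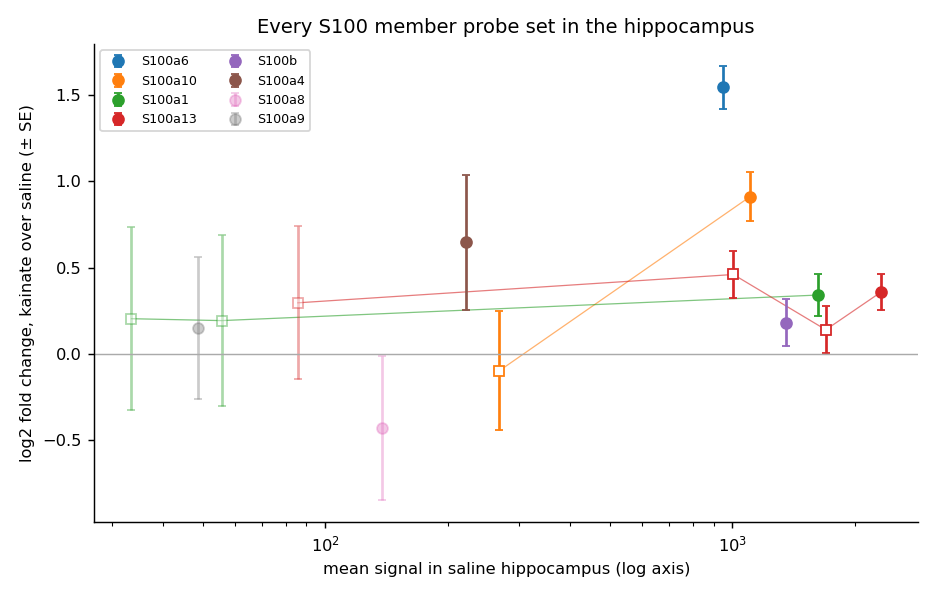
Log2 fold change of kainate over saline in the hippocampus (± SE) for all 14 S100 probe sets, against the mean signal in the saline hippocampus on a log axis; filled circles are main probe sets, open squares the other probe sets of a gene, joined by lines, and faint symbols those too dim to test. The brighter S100a10 probe set is at 0.91 and the dimmer at -0.098, while all 4 S100a13 probe sets lie above 0.

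Arrays were also grouped by the signals of 9 hybridization control probe sets, which gave 4 clusters that the labels do not name. In the 3 clusters that held both kainate and saline hippocampus arrays, the S100a6 log2 difference was 1.28, 1.78 and 1.58, and that of S100a10 was 0.99, 0.76 and 0.94. The clusters held 2 kainate against 3 saline arrays, 1 against 1 and 1 against 2. For both genes every kainate hippocampus array lay above every saline one, so the direction within a cluster was fixed beforehand. The clusters give only the size of the difference.

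Markers of other cell types were set beside the kainate hippocampus values. Of 13 tested markers of microglia and macrophages 12 were called higher, with a median log2 fold change of 1.82, and the summed signal of the 16 measured was 19376 to 22125 over the saline arrays and 52090 to 83383 over the kainate arrays. Of 9 tested astrocyte markers 3 were called higher, with a median of 0.285 (summed signal 47596 to 50952 with saline and 70037 to 81660 with kainate), and of 9 tested markers of reactive astrocytes also 3, with a median of 0.083 (8838 to 10763 and 26817 to 33184). Gfap is on both astrocyte lists, so their counts and sums are not independent. The part of these cell types in the S100 values was not tested. Neutrophil markers, 12 measured, gave 0 of 7 tested called, with summed signals of 3136 to 4493 with saline and 3376 to 5090 with kainate. In the kainate hippocampus 7 of the 12 had means above the filter level. The lowest of the 12 there was the granule gene Ngp, at a mean of 44.8. Markers of meninges and fibroblasts gave 1 of 10 called higher. Those of blood (3 tested), myelin (7), oligodendrocyte precursors (2), choroid plexus and ependyma (5), endothelium and vessel wall (10), neurons (10), hippocampus (6) and neocortex (4) gave 0 called in either direction.

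In the neocortex the same injections gave 0 S100 genes called by limma, with 1 at an unadjusted p under 0.05, where 0.0115% of all tested probe sets, a single one, were called. S100a6 gave 2224.5, 1821.0, 1556.3, 1684.3 and 1476.9 with kainate, and 1193.3 over a median of 1287 to 1574.2 with saline. The kainate arrays split into 3 above every saline array and 2 within the saline range. The means were 1753 ± 294 (SD, n = 5) and 1332 ± 136 (SD, n = 6), and the log2 fold change of 0.38 ± 0.108 SE, or 1.30-fold, did not pass (adjusted p = 0.582, unadjusted 0.00194). Within the 3 control clusters that held both groups it was 0.66, 0.43 and 0.23.

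The other tested members had neocortical log2 fold changes from -0.097 to 0.46 with kainate. S100a10 gave 1285.7, 1569.7, 1422.0, 1347.4 and 1498.2 and lay inside or below the saline range of 1356.9 to 1884.9 (-0.097 ± 0.107 SE, adjusted p = 0.927). The dimmer S100a10 probe set gave 0.21. S100a4 had the widest interval, at 0.46 with a 95% confidence interval from -0.41 to 1.33 (adjusted p = 0.920). S100a13, S100a1 and S100b were at 0.037, -0.005 and -0.010.

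The test of whether the kainate effect differed between the regions, an interaction over all 34 arrays, called S100a6 and S100a10, 2 of 6 tested members, and 0.794% of all tested probe sets in either direction. The effect on S100a6 was larger in the hippocampus by 1.16 ± 0.162 SE on the log2 scale (limma, adjusted p = 1.74e-05). That on S100a10 was larger by 1.01 ± 0.178 SE (adjusted p = 0.000824), while its dimmer probe set gave -0.31. S100a13 at 0.32 ± 0.127 SE (adjusted p = 0.398), S100a1 at 0.35 ± 0.171 SE (0.557), S100b at 0.19 ± 0.214 SE (0.834) and S100a4 at 0.19 ± 0.586 SE (0.949) did not pass. Both regions came from 1 set of mice, and as no label ties a hippocampus array to its neocortex array, the arrays were treated as independent.

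Nicotine against saline gave 0 S100 genes called by limma in either region, with 0 in the hippocampus and 1 in the neocortex at an unadjusted p under 0.05, and 0% of all tested probe sets passed in either. In the hippocampus S100a6 ran from 842.9 over 979 to 1250.8 with nicotine, a range that enclosed that of saline (log2 fold change 0.084 ± 0.119 SE, adjusted p = 0.930). S100a10 ran from 782.1 over 1176 to 1414.2 and also enclosed the saline arrays (0.029 ± 0.136 SE, adjusted p = 0.978). The 95% confidence intervals were -0.16 to 0.33 for S100a6 and -0.26 to 0.31 for S100a10. In the neocortex S100a6 was 1016.4 over 1118 to 1289.6 with nicotine, lower on average than with saline and overlapping it (-0.23 ± 0.103 SE, unadjusted p = 0.0356, adjusted p = 0.497). The other members tested with nicotine had log2 fold changes from -0.22 to -0.012 in the hippocampus and from -0.55 to -0.006 in the neocortex, the lowest in both being S100a4. The test of a difference in the nicotine effect between regions also called 0 members and 0% of all tested probe sets, with S100a6 at 0.32 ± 0.154 SE (unadjusted p = 0.0492, adjusted p = 0.994).

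**Figure D3:**
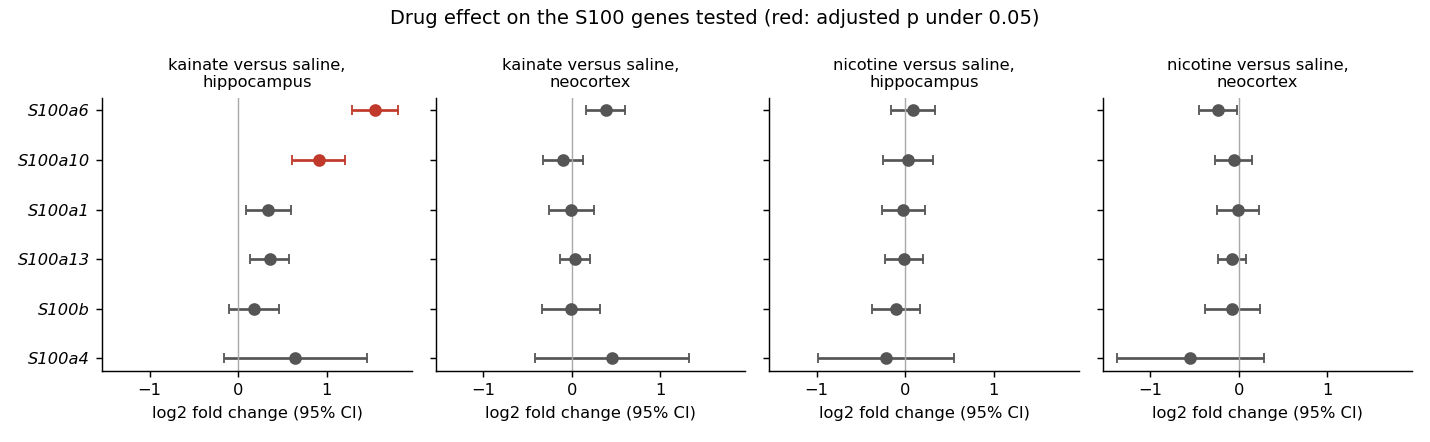
Log2 fold change with its 95% confidence interval for the 6 S100 genes tested, in the 4 comparisons of a drug with saline; red marks an adjusted p under 0.05. S100a6 at 1.55 and S100a10 at 0.91 in the kainate hippocampus are the red points, and the nicotine intervals include 0 except that of S100a6 in the neocortex (-0.45 to -0.017).

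Kainate was also set against nicotine, the other injected drug. In the hippocampus S100a6 was 2.75-fold higher with kainate (1.46 ± 0.125 SE, adjusted p = 1.03e-07) and S100a10 was 1.84-fold higher (0.88 ± 0.143 SE, adjusted p = 0.000637), again 2 of 6 tested members, where 2.04% of all tested probe sets were called higher. The dimmer S100a10 probe set gave 0.050 ± 0.340 SE (adjusted p = 0.993). On the main probe sets the kainate arrays of both genes lay above every nicotine array, as did those of 2.27% of all tested probe sets. S100a13 (0.37 ± 0.106 SE, adjusted p = 0.0823), S100a1 (0.36 ± 0.121 SE, adjusted p = 0.165), S100a4 (0.86 ± 0.388 SE, adjusted p = 0.403) and S100b (0.29 ± 0.137 SE, adjusted p = 0.457) did not pass. With the replicate number as a block, since same-numbered arrays of these 2 groups deviated together, 4 members were called, with S100a13 at 0.38 (adjusted p = 0.0342) and S100a1 at 0.38 (adjusted p = 0.0442) added. Without kainate replicate 4, S100a13 also passed (0.45, adjusted p = 0.0168). These comparisons share the kainate arrays with those against saline.

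In the neocortex S100a6 was 1.53-fold higher with kainate than with nicotine (0.61 ± 0.108 SE, adjusted p = 0.0381), 1 of 6 tested members, where 0.0345% of all tested probe sets, 3 in number, were called. Every kainate array, from 1476.9 upward, lay above every nicotine array, the highest of which was 1289.6, a separation that 0.276% of all tested probe sets showed. The call ended without kainate replicate 1, 2 or 4 or nicotine replicate 1, 3, 4, 5 or 6, with adjusted p from 0.0632 to 0.179 and log2 fold changes from 0.53 to 0.62 then. Centring on the median (adjusted p = 0.134), a fit of the 2 groups alone (0.131) and a fit without an intensity trend (0.0600) ended it too. Beside this call, 1 of 9 tested astrocyte markers, 1 of 9 reactive astrocyte markers, 0 of 12 microglial markers and 1 of 4 hippocampus markers were called higher with kainate. As Gfap is on both astrocyte lists, their counts are not independent. The summed hippocampus markers of the neocortex arrays were 4337 to 5273 with kainate, 3074 to 3936 with nicotine and 3600 to 3882 with saline, and the summed reactive astrocyte markers were 7270 to 9718, 5695 to 6818 and 5622 to 6601. Both sums were higher on every kainate array than on any other neocortex array. The summed microglial markers were 21535 to 26069 with kainate, above every nicotine array (18923 to 21304) and overlapping saline (19114 to 21708). The summed astrocyte markers, 40449 to 48395 with kainate, overlapped nicotine (38924 to 42647) and saline (36963 to 43713). The part of these markers in the S100a6 values was not tested. S100a4, at 1.004 ± 0.418 SE (unadjusted p = 0.0259), did not pass (adjusted p = 0.998), and the other 4 tested members were at -0.042 to 0.11.

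Between the regions of saline mice, S100a6 and S100a10 were lower in the hippocampus, 2 of 6 tested members, where 5.19% of all tested probe sets were called lower, 5.36% higher and 10.5% in either direction. S100a6 was 1.39-fold lower (-0.48 ± 0.109 SE, adjusted p = 0.00215), and all saline hippocampus arrays, up to 1006.4, lay below all saline neocortex arrays, from 1193.3. S100a10 was also 1.39-fold lower (-0.47 ± 0.120 SE, adjusted p = 0.00638), with hippocampal signals up to 1269.3 and neocortical signals from 1356.9. Hippocampal arrays lay wholly below those of the neocortex for 2.93% of all tested probe sets. Its dimmer probe set gave 0.13. S100a13 was 0.20 ± 0.086 SE higher without passing (adjusted p = 0.148), and passed without saline hippocampus replicate 4 (0.26, adjusted p = 0.0436). S100b (-0.18), S100a1 (0.057) and S100a4 (0.27) did not pass.

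The order of the 6 groups differed between the genes. For S100a6 the means ran downward from the kainate hippocampus (2834) over the kainate (1753), saline (1332) and nicotine neocortex (1131) to the nicotine (1014) and saline hippocampus (948). For S100a10 the kainate hippocampus (2069) came before the saline (1532), nicotine (1472) and kainate neocortex (1425) and the nicotine (1134) and saline hippocampus (1103). S100a1 and S100a13 had their highest means in the kainate hippocampus (2086 and 2973) and S100a13 its lowest in the nicotine neocortex (1900). S100b stayed between 1255 and 1551 in all groups, with the saline neocortex highest. For every gene, each group's range of signals overlapped that of the next group in this order.

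Across the 34 arrays the log2 values of S100a6 and S100a10 had a Pearson r of 0.69, and of -0.21 after the mean of each group was subtracted. The genes most like S100a6 over the arrays were Ctss, cathepsin S of microglia (r = 0.89), H2-D1, a class I histocompatibility antigen (0.87), and C1qb, a chain of complement C1q (0.84). Their rank correlations (Spearman) with S100a6 were lower, at 0.675, 0.753 and 0.483. After group means were subtracted, C1qb (0.68), Bpgm (0.68) and Rpn2 (0.68) were nearest to S100a6. For S100a10 they were the cathepsin gene Ctsb (0.79), Lgals3bp (0.77) and the interferon-induced Ifit3 (0.76), and after subtraction Xrcc1 (0.66), Dnm2 (0.66) and the connexin gene Gjb6 of astrocytes (0.64). Nearest to S100a13 were Mdk (0.85), Cd9 (0.85) and Rplp0 (0.84), and to S100a1 Lamp2 (0.88), Rpl7 (0.82) and Plpp3 (0.82). Nearest to S100b were Jak2 (0.62), Tk2 (0.61) and Sparcl1 (0.60), and to S100a4 Anxa4 (0.65), Abca4 (0.60) and Ctsa (0.60). After subtraction none of the genes named for S100a13, S100a1 and S100a4 stayed among the nearest 3, and for S100b Sparcl1 stayed (0.64). These are descriptions over arrays that share the groups, scaling and chip, and the genes were ranked over all named genes that passed the filter.

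Of 9 other genes listed with S100 in their symbol, 6 were measured and 3 tested, and 0 were called in any comparison. A further probe set, which names no gene here because it carries several symbols, among them that of another S100 gene and its pseudogene, was called higher in the kainate hippocampus (1.19 ± 0.271 SE, adjusted p = 0.0157) and against nicotine there (1.31 ± 0.271 SE, adjusted p = 0.00698). In the kainate hippocampus S100a3, S100a14 and S100pbp, an S100P-binding protein, had log2 fold changes of 0.020, 0.26 and -0.16. A dimmer S100a14 probe set gave -0.088. S100a5, S100a16 and S100g were too dim to test. Neighbouring named genes on the chromosome, members left out, gave 0 of 4 tested called around S100a6 (-0.007 to 0.26), 0 of 4 around S100a10 (-0.20 to 0.25) and 0 of 8 around S100b (-0.72 to 0.33) in that comparison. There 2.79% of all tested probe sets were called in either direction. Up to 25, 54 and 16 other genes lay between these tested neighbours and S100a6, S100a10 and S100b.

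Annexins and other proteins that S100 dimers bind formed a list of 27, of which 24 were measured and 20 tested in the hippocampus. With kainate 2 were called higher and 0 lower, and the median log2 fold change was 0.12. Anxa5, the annexin that binds exposed phosphatidylserine, rose from 2162 ± 226 (SD, n = 6) to 3514 ± 419 (SD, n = 5), by 0.69 ± 0.104 SE (limma, adjusted p = 0.000252). Anxa3 rose from 295 ± 94.8 (SD, n = 6) to 552 ± 68.5 (SD, n = 5), by 0.92 ± 0.238 SE (adjusted p = 0.0382). The Anxa3 call ended with median centring (0.80, adjusted p = 0.0589), quantile normalization (0.81, adjusted p = 0.0943), no filter or a control-cluster block, and without saline replicate 2, 3, 5 or 6 or kainate replicate 1, 2, 3 or 5 (adjusted p from 0.0571 to 0.0983). Anxa2, the partner of S100a10, was at 0.66 ± 0.187 SE and did not pass (adjusted p = 0.0621). Anxa4 at 0.71 (adjusted p = 0.0816), Ahnak, a large scaffold bound by the S100A10-annexin A2 complex, at 0.35 (0.263) and Cacybp, the calcyclin-binding protein, at -0.27 (0.442) did not pass either. In the kainate neocortex 0 of 22 tested were called. Against nicotine in the hippocampus 3 were called higher, Anxa3 (0.91), Anxa4 (0.85) and Anxa5 (0.68). The Anxa3 call ended without kainate replicate 1, 2, 3, 4 or 5 or nicotine replicate 2, 3 or 6 (adjusted p up to 0.117), and the Anxa4 call without kainate replicate 1, 2, 4 or 5 or nicotine replicate 1 or 6 (up to 0.101), while Anxa5 passed without any single array. With the replicate number as a block Anxa4 did not pass (0.79, adjusted p = 0.0816). Nor did Anxa3 with median centring (adjusted p = 0.0776), quantile normalization (0.0642), no filter (0.0646) or a control-cluster block (0.0780), or Anxa4 with no filter (0.0533), a control-cluster block (0.0704) or only the groups compared (0.0831). The kainate effect on Anxa5 was larger in the hippocampus than in the neocortex by 0.60 ± 0.126 SE (adjusted p = 0.00788), and by 0.49 with median centring (adjusted p = 0.144). In saline mice Myh9, the heavy chain of nonmuscle myosin that S100A4 binds, was 0.49 ± 0.094 SE higher in the hippocampus by its brighter probe set (adjusted p = 0.000279) and 0.19 higher by another, which did not pass (adjusted p = 0.692).

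**Figure D4:**
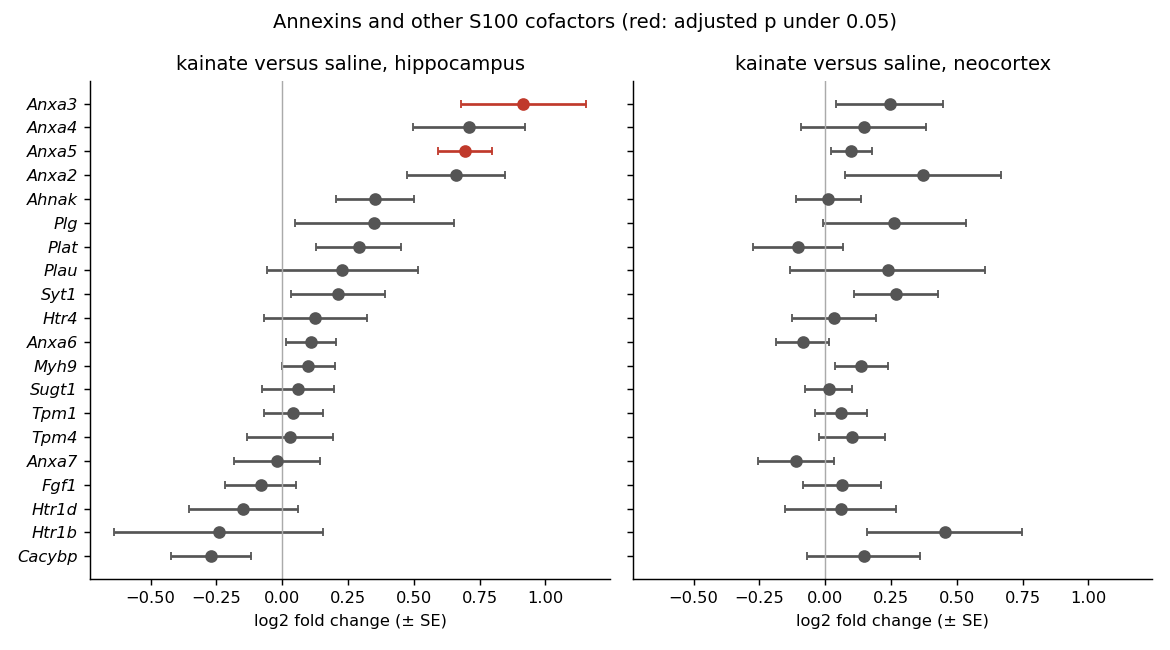
Log2 fold change of kainate over saline (± SE) for the annexins and other S100 cofactors tested in the hippocampus (left) and the same genes in the neocortex (right), in the order of the hippocampal values; red marks an adjusted p under 0.05. Anxa3 at 0.92 and Anxa5 at 0.69 in the hippocampus are the red points.

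Receptors of secreted S100 proteins and their downstream genes were 14 measured and 9 tested. With kainate in the hippocampus 1 was called, Cd68, a lysosomal scavenger receptor of macrophages that is also among the microglial markers (643 ± 48.9, SD, n = 6, to 1802 ± 263, SD, n = 5, log2 fold change 1.46 ± 0.119 SE, adjusted p = 5.49e-08). Ager, which encodes the receptor for advanced glycation end products, was at -0.061 ± 0.392 SE (adjusted p = 0.972). Against nicotine in the hippocampus Cd68 was again the gene called (1.38), and it was called in the interaction with region (1.26). In saline mice Fgfr1, a receptor of fibroblast growth factors, was higher in the hippocampus by 1.43 ± 0.124 SE (adjusted p = 5.31e-11).

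EF-hand proteins outside the S100 family gave 2 higher and 2 lower of 22 tested with kainate in the hippocampus. The matrix protein genes Sparc (0.63 ± 0.136 SE, adjusted p = 0.00966) and Sparcl1 (0.29 ± 0.074 SE, adjusted p = 0.0343) rose. With median centring Sparc was at 0.52 (adjusted p = 0.0508) and Sparcl1 at 0.18 (0.271), and Sparcl1 also did not pass with no filter (0.0517), no intensity trend (0.0986) or only the groups compared (0.0671), or without saline replicate 1, 2 or 6 or kainate replicate 1, 2, 4 or 5 (adjusted p from 0.0514 to 0.112). Calb1, which encodes calbindin, a buffer of granule cells and interneurons, fell from 2430 ± 188 (SD, n = 6) to 1572 ± 171 (SD, n = 5), a log2 fold change of -0.63 ± 0.10 SE (adjusted p = 0.000480). Ppp3r1, the regulatory subunit of calcineurin, fell as well (-0.34 ± 0.068 SE, adjusted p = 0.00473, and -0.27 with quantile normalization, adjusted p = 0.0761). The kainate effect on Calb1 was lower in the hippocampus than in the neocortex by -0.80 ± 0.121 SE (adjusted p = 6.49e-05). In saline mice 4 of the 22 were higher in the hippocampus and 3 lower: Calml4 (2.00), Calb2 (1.24), Hpca (1.24) and Capns1 (0.31) against Vsnl1 (-0.55), Pvalb (-0.49) and Efhd2 (-0.40). Calml4 is also on the list of choroid plexus and ependyma markers, of which 2 of 4 tested were higher in the saline hippocampus, with summed signals of 1975 to 10685 against 979 to 2725 in the neocortex. The part of these cells in the Calml4 value was not tested. Another Pvalb probe set gave -0.57 and did not pass (adjusted p = 0.0749). Capns1 did not pass under 6 of the other settings, with adjusted p from 0.0529 to 0.0812, nor without saline neocortex replicate 3, 4 or 6 or saline hippocampus replicate 1, 3, 4, 5 or 6 (0.0523 to 0.141). With nicotine, 0 genes of these lists were called in either region.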

How the data were processed

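The authors deposited 1 table of signal intensity per probe set on a linear scale, made with MAS5 per the submitters' processing notes, with no version given. Detection calls were not used here. The 66 control probe sets were left out of 12488. Symbols came from the platform annotation (10833 probe sets with 1 symbol, 396 with several, which name no gene, and 1193 with none), of which 10817 were matched to RefSeq by Entrez identifier. The S100 genes and lists were chosen with earlier results of these data known.

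limma 3.58.1 in R 4.3.3 (lmFit, eBayes with an intensity trend) was fitted to log2(signal + 16), a pseudocount that shrinks fold changes at low signal. The filter kept 8695 of 12422 probe sets, those whose mean log2 value reached the 30th percentile in the fitted arrays, and p-values were adjusted over all of them with the Benjamini-Hochberg method. Drug comparisons used the 17 arrays of a region, and the region and interaction tests all 34. Labels name arrays as biological replicates, and their number limits the precision. The fit was tested on simulated data.

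Named genes were all 8 members, every measured other S100 gene, called genes of the lists (up to 5 per direction) and the 3 genes most correlated with each member; Ager, Anxa2, Anxa4, Ahnak and Cacybp were named outside that rule, after their values were seen. Same-numbered kainate and nicotine hippocampus arrays deviated together in all 5 pairs (r from 0.118 to 0.278), a hint from the data and not from the labels. The same number gave the best match in only 2 of these 5. Alternatives were 2 pseudocounts (1 and 64), 2 filters (none, 50th percentile), 2 scalings, the variance model, array weights, a replicate block, a control-cluster block, the arrays in the fit, the next brightest probe set and each array left out. The same settings for called list genes, and differences within control clusters, were added after the data were seen.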

Additional observations from a re-analysis of the deposited data

Results flagged for a closer look

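S100a6 and S100a10 differed between regions in their response to kainate. The hippocampal effect exceeded the neocortical one by 1.16 (S100a6) and 1.01 (S100a10) on the log2 scale, in limma's interaction test (adjusted p = 1.74e-05 and 0.000824).

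A single array lay far from the rest of its group for S100a1, where nicotine neocortex replicate 6 was lowest at 1131.4, and for S100a8, where saline hippocampus replicate 2 was highest at 283.2. Chance flags about 1 in 20 groups, and 48 groups were examined.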

How the results depend on the processing

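S100a6 was called in the kainate hippocampus, in the interaction and between saline regions under every alternative that could alter it. It has only 1 probe set, so the probe-set alternative could not change it. S100a10 was called in these comparisons under all but its dimmer probe set. Against saline in the kainate hippocampus S100a6 ran from 1.43 to 1.60 over the other settings and from 1.47 to 1.64 with 1 array left out. Array weights, all 34 arrays or a replicate block gave 3 members called there in place of 2 (S100a13 at 0.36 with the block, adjusted p = 0.0368), and the former 2 settings also 3 against nicotine. With each array left out in turn the number of members called was 2 to 3 in the kainate hippocampus against saline or nicotine and in the saline regions, 2 in the interaction, 0 to 1 for kainate against nicotine in the neocortex and 0 elsewhere. The next brightest probe set left 1 called in each of the 4 comparisons that called 2. That 1 was S100a6, whose value was unchanged in this setting, while S100a10 lost its call in all 4. The replicate block gave 4 for kainate against nicotine in the hippocampus. Median centring, no intensity trend and only the groups compared gave 0 for that contrast in the neocortex. Over the other group pairs, r of same-numbered arrays ran from -0.172 to 0.282. The lowest r was 0.00863 for saline against nicotine neocortex and below 0 for each of the rest.

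Median centring turned the 243 probe sets called in the kainate hippocampus (65.8% higher) into 443 (29.3% higher), those of the interaction from 69 to 47 (91.3% to 74.5% higher), and those of kainate against nicotine in the neocortex from 3 to 1. Over all settings this last count ran from 1 to 8 and that of kainate against saline in the neocortex from 1 to 4. Called genes of the other lists kept their direction in every setting run. The cause of the changes listed here was not tested.

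Sign changes between settings, in log2 fold change, concern values near 0 apart from S100a10 by its dimmer probe set. That probe set gave -0.098 (kainate hippocampus), 0.214 (kainate neocortex), -0.147 (nicotine hippocampus), 0.316 (kainate against nicotine, neocortex), 0.133 (saline regions), -0.312 and -0.045 (kainate and nicotine interactions). The next S100a13 probe set gave 0.10 (nicotine neocortex), -0.021 (kainate against nicotine, neocortex) and -0.118 (nicotine interaction). Array weights gave S100a1 0.017 and S100b 0.10 (kainate neocortex), S100a1 0.008 and S100a13 0.011 (nicotine hippocampus), S100a1 0.018 (nicotine neocortex), and S100a10 0.009 and S100a1 -0.001 (kainate against nicotine, neocortex). The replicate block gave S100b 0.034 (kainate neocortex), and S100a10 0.007 and S100a1 -0.066 (kainate against nicotine, neocortex). The control-cluster block gave S100a1 0.054 and S100b 0.037 (nicotine interaction), and median centring S100a10 -0.035 (nicotine hippocampus).

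With arrays left out, S100a1 ranged from -0.051 to 0.074 (kainate neocortex), -0.069 to 0.040 (nicotine hippocampus), -0.051 to 0.084 (nicotine neocortex), -0.088 to 0.080 (kainate against nicotine, neocortex) and -0.106 to 0.046 (nicotine interaction). S100a10 ranged from -0.062 to 0.129 (nicotine hippocampus), -0.092 to 0.008 (nicotine neocortex) and -0.006 to 0.185 (nicotine interaction). S100b ranged from -0.116 to 0.110 (kainate neocortex), -0.025 to 0.181 (kainate against nicotine, neocortex) and -0.102 to 0.073 (nicotine interaction). S100a4 ranged from -0.491 to 0.028 (nicotine hippocampus, main value -0.215) and -0.086 to 0.425 (kainate interaction, main value 0.19). S100a13 ranged from -0.072 to 0.049 (nicotine hippocampus).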
